A study of Mus musculus with 48 samples.

Results

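The lowest doses of the study, 0.01, 0.03 and 0.1 µg/kg of the dioxin TCDD, were pooled. They were chosen by the dose in the labels, which gave 18 of the 48 arrays and 9 of the 24 animal pairs, 3 pairs at each of these 3 doses. The treated mice were females of the strain C57BL/6 that received TCDD by gavage every 4 days for 28 days, and the vehicle mice were females of the same strain that received sesame oil alone. The labels describe no mutation or transgene and give no age. One label also calls the gavage daily. RNA of the jejunal epithelium of 1 treated and 1 vehicle animal was hybridised to each 2-colour Agilent array, and another array held the same pair with the dyes exchanged. The 9 treated animals differed, but the vehicle side consisted of 3 animals, numbered 2, 4 and 6, each of which was compared with 1 treated animal per dose.

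TCDD is a long-lived ligand of the aryl hydrocarbon receptor (AHR), a transcription factor that waits in the cytoplasm in a chaperone complex. Once bound, AHR enters the nucleus, pairs with ARNT and binds DNA at xenobiotic response elements, whose core is GCGTG. Its best known targets are the cytochrome P450 gene Cyp1a1, the repressor gene Ahrr and Tiparp, which encodes an ADP-ribosyltransferase that restrains AHR. The jejunal epithelium takes up fat, sugars and vitamin A and meets dietary AHR ligands at every meal, and intraepithelial lymphocytes lie between its absorptive cells.

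The values were log2 ratios of the treated over the vehicle animal. Their direction is likely and not stated in the labels, and it rests on Cyp1a1, which was above 0 on 12 of 12 arrays at 10 and 30 µg/kg. The 18 arrays held 28312 to 32171 values each. Arrays of the same dye orientation shared a dye profile, and averaging each orientation gave 2 profiles that correlated at -0.62 across probes. With that profile removed, the 2 arrays of a pair correlated at 0.21 to 0.52 across probes, with a median of 0.42. The test covered 13648 genes, among them 17 of the 24 listed brush border genes, which mark the labelled epithelium. Ratios hold no level, so how strongly a marker was expressed cannot be read from them, and fewer cells of a type and less RNA per cell cannot be told apart in any result given here. The exocrine pancreas genes were high in 2 pairs, with a list median of 2.56 at 0.03 µg/kg and 1.57 at 0.1 µg/kg against vehicle animal 4, and between -0.07 and 0.04 in the other 7 pairs.

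Over the 9 pairs, few differences between treated and vehicle jejunal epithelium at 0.01 to 0.1 µg/kg passed the test. By limma with the vehicle animal as a random block, 1 of 13648 genes was called at a Benjamini-Hochberg adjusted p under 0.05, and it was lower. The share of genes called was 0% higher and 0.00733% lower. At an unadjusted p under 0.05, 1115 genes passed, 549 higher (4.02%) and 566 lower (4.15%). The median of all genes was 5e-04, the median standard error of a gene's mean was 0.0445 and its median SD over pairs was 0.121, all on the log2 scale. In the pooled mean, 9 genes lay at least 1.5-fold from 0 and 0 lay at least 2-fold from it. Of these 9, 7 were exocrine pancreas genes (Amy2a5, Cela3b, Cpa1, Cpb1, Ctrc, Pnliprp1 and Prss2) and the others were Taf15 and Ubd.

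The called gene was Tob2, a member of the antiproliferative BTG and Tob family, whose proteins bring the CCR4-NOT deadenylase to messenger RNAs. Against vehicle animals 2, 4 and 6 in that order, the pairs at 0.01 µg/kg had log2 ratios of -0.31, -0.33 and -0.45, those at 0.03 µg/kg -0.13, -0.45 and -0.39, and those at 0.1 µg/kg -0.23, -0.45 and -0.55. All 9 pairs lay below 0, and the pair against vehicle animal 2 was the least low at each of the 3 doses. The mean was -0.37 with an SD of 0.13 (n = 9 pairs, 95% interval -0.46 to -0.27, limma adjusted p = 0.0427). Both Tob2 probes were below 0 in 9 of 9 pairs, with means of -0.52 and -0.22, and tested by itself neither was called (limma adjusted p = 0.0628 and 0.171). On the arrays whose Cy5 channel held the treated animal the mean was -0.34, and on the dye-swapped ones it was -0.39. At 0.3, 1 and 3 µg/kg Tob2 had mean log2 ratios of -0.37, 0.09 and 0.03, and at 10 and 30 µg/kg of -0.09 (SD 0.58) and -0.39 (SD 0.73). The call depended on which pairs were included: with each of the 9 pairs left out in turn, it held in 2 cases (without 0.01 or 0.03 µg/kg against vehicle animal 2) and was lost in the other 7, with limma adjusted p from 0.0872 to 0.200. With 1 mean per vehicle animal, so 3 values in place of 9, the call was lost as well (limma adjusted p = 0.915). It was also lost without both pairs with high exocrine pancreas genes (adjusted p = 0.183), with a mean per dose in the fit (0.0970) and in a fit of all 24 pairs (1.00), where Taf15 was called in its place.

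Taf15, which encodes an RNA-binding protein of the FET family, was below 0 in all 9 pairs, with lower values at 0.03 and 0.1 µg/kg than at 0.01 µg/kg. In the same order, the pairs at 0.01 µg/kg had log2 ratios of -0.09, -0.35 and -0.27, those at 0.03 µg/kg -0.60, -0.80 and -0.80, and those at 0.1 µg/kg -0.95, -0.93 and -0.90. The 3 doses did not overlap, and the pairs within a dose lay close together. The array medians as deposited, which centring removed, also went by dose. They ran from -0.10 to -0.06 at 0.03 µg/kg, from 0.02 to 0.04 at 0.01 µg/kg and from 0.003 to 0.04 at 0.1 µg/kg. An effect of the group of arrays on Taf15 cannot be told apart from dose and was not tested. With each dose tested alone, Taf15 was the one gene called at 0.03 µg/kg (mean -0.73, SD 0.12, n = 3, limma adjusted p = 0.00675) and the one gene called at 0.1 µg/kg (mean -0.93, SD 0.03, limma adjusted p = 0.000808), which is 0.00733% of the genes tested at each of these doses. At 0.01 µg/kg limma called 0 genes (0%), with 496 at an unadjusted p under 0.05 and a smallest adjusted p of 0.999. The unadjusted counts were 797 at 0.03 µg/kg and 821 at 0.1 µg/kg. Without the pairs of vehicle animal 2, 4 or 6, the calls at the 3 doses together numbered 1, 0 and 0.

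The Taf15 values beyond these doses did not continue in one direction. The mean log2 ratio was -0.996 at 0.3 µg/kg, 0.30 at 1 µg/kg, -0.15 at 3 µg/kg, -0.18 at 10 µg/kg and -0.82 at 30 µg/kg. Array medians as deposited also went by dose here. They ran from -0.09 to -0.07 at 0.3 µg/kg, from 0.04 to 0.08 at 1 µg/kg and from -0.08 to -0.02 at 30 µg/kg. At 3 µg/kg they ran from -0.01 to 0.01 and at 10 µg/kg from -0.01 to 0.025. Dose and group of arrays cannot be told apart at these doses either. Over the 9 low-dose pairs the mean of -0.63 was not called (limma adjusted p = 0.178). It was called with the vehicle animal as a fixed block (0.0409), with a mean per dose in the fit (0.000515), in a fit of all 24 pairs (0.00249), without the 0.01 µg/kg pairs (0.00184) and without the one of them against vehicle animal 2 (0.0440). The mean was -1.02 over the arrays whose Cy5 channel held the treated animal, where Taf15 was among 2235 called genes. Over the dye-swapped ones it was -0.25 and not called. A slope on log10 dose within vehicle animal gave -0.69 per unit of log10 dose for Taf15 (limma adjusted p = 0.586). For the slope, 0 genes were called (0%) and 467 had an unadjusted p under 0.05. The others with the smallest p for the slope, not called, were Gprin1 and the tight junction gene Cldn4, both with positive slopes.

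**Figure D1:**
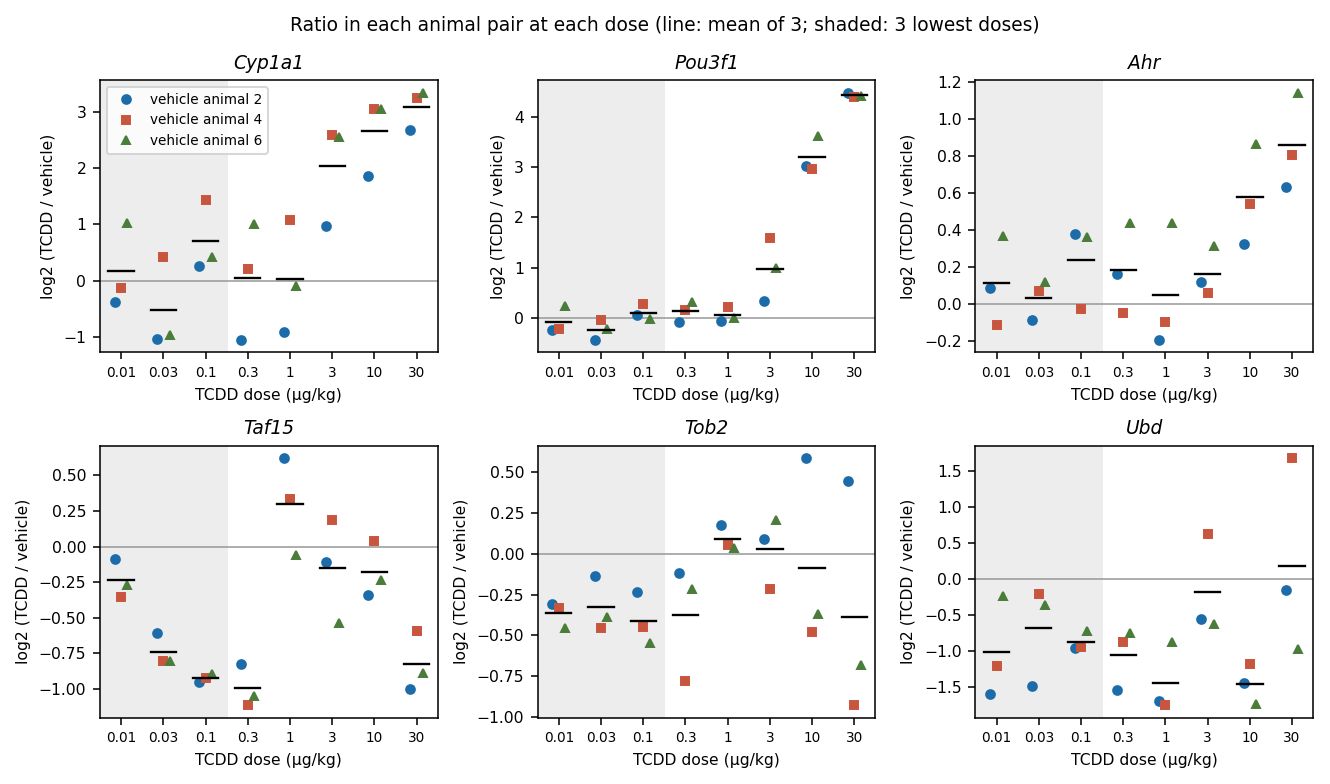
Log2 ratio of TCDD over vehicle (vertical axis) at each of the 8 doses in µg/kg (horizontal axis) for 6 genes, with 1 point per animal pair coloured by vehicle animal, a line at the mean of 3 pairs and the 3 lowest doses shaded. Tob2 and Taf15 lay below 0 in 9 of 9 low-dose pairs, while Cyp1a1 spread from -1.03 to 1.43 there and lay above 0 in every pair at 10 and 30 µg/kg.

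Ubd, which encodes a ubiquitin-like modifier induced by interferon and tumour necrosis factor, had the lowest pooled mean of the genes tested. Its log2 ratio ran from -1.60 through a median of -0.95 to -0.20, below 0 in 9 of 9 pairs, and the mean of -0.85 (SD 0.52) was not called (limma adjusted p = 0.200). It was also below 0 on average at 0.3 µg/kg (-1.05), 1 µg/kg (-1.44), 3 µg/kg (-0.18) and 10 µg/kg (-1.45), and its mean was 0.19 at 30 µg/kg.

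The other genes with the smallest p in the lower direction were also not called, with limma adjusted p from 0.142 to 0.230. Bach1, the heme-sensing repressor of antioxidant genes, had a mean log2 ratio of -0.29 (SD 0.12, -0.51 to -0.06, median -0.27). Cdc37l1, related to the Hsp90 co-chaperone Cdc37, had a mean of -0.29 (SD 0.12, -0.50 to -0.12, median -0.31), and 1 of its 4 probes had a mean of -0.04. Both were below 0 in 9 of 9 pairs. The same held for Rpia, an enzyme of the pentose phosphate pathway (mean -0.28), for Uggt1, which tags misfolded glycoproteins in the endoplasmic reticulum (-0.28), for Ciita, the master regulator of MHC class II genes (-0.30), for the Golgi matrix gene Golgb1 (-0.26), and for Abhd1 (-0.20) and N4bp2l2 (-0.19). A probe of Golgb1 had a mean of -0.005 by itself, with 4 pairs above 0 and 5 below. Bach1, Rpia, Uggt1 and Ciita, like Taf15 and Ubd, rested on a single probe each. Max, the dimer partner of Myc proteins, had a mean of -0.22 and was below 0 in 8 of 9 pairs, also by a single probe. These pooled means were all smaller in size than that of Tob2. Several of these genes had a low mean at 0.3 µg/kg and none at 1 µg/kg. In that order the means were -0.65 and 0.24 for Bach1, -0.36 and 0.07 for Cdc37l1 and -0.55 and 0.02 for Uggt1. Golgb1 had -0.50 and 0.001, and Max had -0.24 and 0.12. Rpia (-0.27 and -0.24) and Ciita (-0.27 and -0.14) were below 0 at both doses, and Abhd1 had 0.01 and -0.08. As for Taf15, dose and group of arrays cannot be told apart in these values.

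No gene was called higher, and the 12 with the smallest p had limma adjusted p from 0.200 to 0.310. Cdkn2b, an inhibitor of cyclin-dependent kinases, had a mean log2 ratio of 0.26 (SD 0.13) and ran from 0.07 through a median of 0.23 to 0.50. Rnd3 had a mean of 0.31 (SD 0.17), and its 2 probes had means of 0.41 and 0.21. The lysosomal genes Laptm4b (0.18) and Neu1 (0.16), the sulfotransferase gene Sult1d1 (0.27) and the proteasome-associated deubiquitinase gene Uchl5 (0.13) were above 0 in 9 of 9 pairs, as were Mob3c (0.23) and Cdkn2aip (0.18). Ggh, which trims folate polyglutamates (0.32), Egln3, an oxygen-sensing prolyl hydroxylase (0.24), the basement membrane laminin gene Lama5 (0.23) and Slc45a3 (0.17) were above 0 in 8 of 9 pairs. Among these 12 genes Rnd3, Laptm4b, Neu1 and Ggh had 2 probes each, and the others rested on a single probe. Of all genes tested, 90 were above 0 and 90 below 0 in all 9 pairs.

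**Figure D2:**
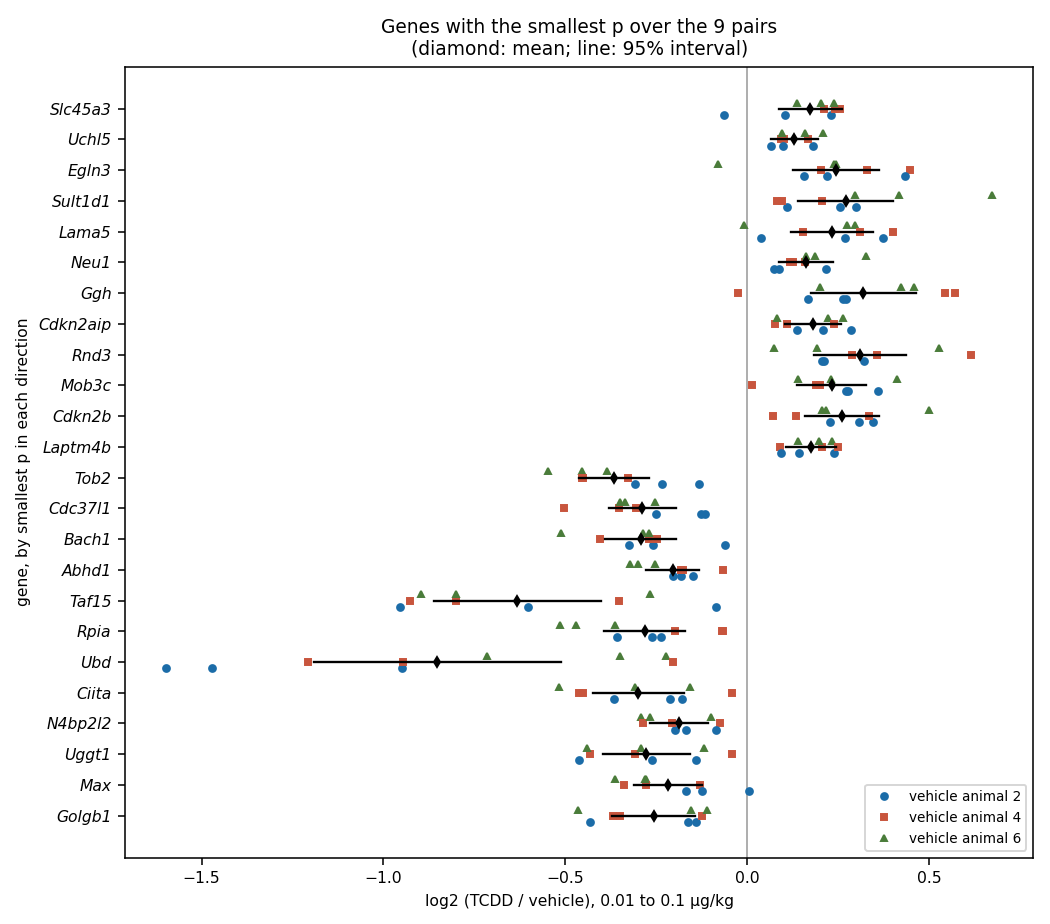
Log2 ratio of TCDD over vehicle at 0.01 to 0.1 µg/kg (horizontal axis) in each of the 9 pairs, coloured by vehicle animal, for the 12 genes with the smallest p above 0 and the 12 below 0 (vertical axis), with a diamond at the mean and a line for its 95% interval. Tob2, the called gene, had an interval of -0.46 to -0.27, and Taf15 and Ubd spread widest.

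No tested gene of the AHR battery, a list of AHR target genes together with Ahr, Arnt and Nfe2l2, was called at these doses. The targets Ahrr, Cyp1a2, Cyp1b1 and Aldh3a1 lacked complete values and were not tested. Of its 16 listed genes 9 had complete values, and 0 of the 9 passed an unadjusted p under 0.05. Of all genes 4.02% passed higher and 4.15% lower, so 0 among 9 is near that share and says little about the list. The Cyp1a1 log2 ratios against vehicle animals 2, 4 and 6 were -0.39, -0.13 and 1.03 in the 0.01 µg/kg pairs, -1.03, 0.42 and -0.96 in the 0.03 µg/kg pairs and 0.25, 1.43 and 0.43 in the 0.1 µg/kg pairs. The 3 pairs at 0.1 µg/kg lay above 0, but their range overlapped that of 0.01 µg/kg. The pooled mean was 0.12 with a 95% interval of -0.45 to 0.68 (SD 0.83, n = 9, limma adjusted p = 0.942). At higher doses the mean of Cyp1a1 was 0.05 at 0.3 µg/kg, 0.02 at 1 µg/kg, 2.04 at 3 µg/kg, 2.65 at 10 µg/kg and 3.08 at 30 µg/kg.

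The receptor gene Ahr had a median of 0.09 in a range of -0.11 to 0.38 and a mean of 0.13, and its partner Arnt had a mean of -0.02 (SD 0.07). Tiparp ran from -0.49 to 0.36 with a mean of -0.08. The epithelial P450 gene Cyp2s1 had a mean of 0.09, and the quinone reductase gene Nqo1, a target of both AHR and NRF2, ran from -0.63 to 0.62 with a mean of 0.02. Nfe2l2, which encodes NRF2, had a mean of 0.06. The glutathione transferase genes Gsta1 (0.14) and Gsta2 (0.12) had means above 0, but their probes lay within 0.005 of a value shared by many probes on 8 and 6 of the 18 arrays. Ahrr had a value on 17 of the 18 arrays with a mean of 0.02, and a probe of Cyp1a2 on 16 with a mean of 0.02. A probe of Cyp1b1 had values on 15 arrays with a mean of -0.15, and Aldh3a1 had values on 0 of the 18.

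For Cyp1a1 and Tiparp, 2 direct AHR targets, and for Tob2 and Taf15, the genes called at low dose, the 250 bases before the gene's start are shown, so that the receptor's core motif can be seen in place. Sequences are from RefSeq on GRCm38.p6, written 5′ to 3′ on the strand of the gene, with the core GCGTG, or its reverse complement CACGC, in capitals. The windows are chr9:57697363-57697612 (plus strand) for Cyp1a1, chr3:65528197-65528446 (plus) for Tiparp, chr15:81858327-81858576 (minus) for Tob2 and chr11:83472858-83473107 (plus) for Taf15.
Cyp1a1: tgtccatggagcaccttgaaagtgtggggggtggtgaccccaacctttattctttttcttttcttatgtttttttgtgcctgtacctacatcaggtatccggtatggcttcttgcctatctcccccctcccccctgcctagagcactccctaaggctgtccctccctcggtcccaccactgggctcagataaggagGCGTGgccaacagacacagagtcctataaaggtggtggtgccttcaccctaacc
Tiparp: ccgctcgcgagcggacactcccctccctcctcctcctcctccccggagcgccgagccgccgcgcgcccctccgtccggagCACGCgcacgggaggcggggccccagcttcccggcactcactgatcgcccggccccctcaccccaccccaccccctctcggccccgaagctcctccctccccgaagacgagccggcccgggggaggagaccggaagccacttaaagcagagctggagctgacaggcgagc
Tob2: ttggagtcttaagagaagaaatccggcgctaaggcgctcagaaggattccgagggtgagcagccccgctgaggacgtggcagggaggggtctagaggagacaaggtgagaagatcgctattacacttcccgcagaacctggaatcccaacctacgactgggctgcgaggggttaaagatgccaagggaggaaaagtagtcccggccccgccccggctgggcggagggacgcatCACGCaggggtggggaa
Taf15: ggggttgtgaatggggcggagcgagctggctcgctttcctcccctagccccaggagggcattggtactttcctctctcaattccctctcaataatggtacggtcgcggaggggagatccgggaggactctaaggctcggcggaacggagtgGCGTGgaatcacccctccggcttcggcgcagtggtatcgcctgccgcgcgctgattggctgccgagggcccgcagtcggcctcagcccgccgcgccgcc
Each of the 4 windows holds the core 1 time. Of 32851 promoters searched over the same 250 bases, 28.2% hold it on either strand, and of the 13805 promoters of genes tested at low dose, 39.3% hold it. A match describes letters and shows no binding.

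The low doses were set against 10 and 30 µg/kg within vehicle animal, which cancels the vehicle animal's own RNA. Of 13347 genes, 38 were called higher at the low doses (0.285%) and 68 lower (0.509%), with 1820 at an unadjusted p under 0.05. The largest difference was that of the POU-domain transcription factor gene Pou3f1, whose mean log2 ratio was -0.07 at the low doses, 3.20 at 10 µg/kg and 4.43 at 30 µg/kg (low minus high -3.88, SE 0.10, limma adjusted p = 2.69e-09). Cyp1a1 differed by -2.75 (SE 0.23, limma adjusted p = 8.41e-05), Acta1, an actin of muscle, by -2.48, Bco1, which cleaves beta-carotene, by -2.43, Wdr11 by -1.50 and Disp2 by -1.48. Of the AHR battery 4 of 9 were called lower at the low doses: Cyp1a1, Tiparp (-1.05), Ahr (-0.59) and Cyp2s1 (-0.43). Without the pairs of vehicle animal 2, 4 or 6, the contrast called 37, 248 and 31 genes, against 106 with all of them.

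Genes higher at the low doses than at 10 and 30 µg/kg included Dnajb3 (low minus high 0.98), Adh4, an alcohol and retinol dehydrogenase (0.96), Gstm3 (0.83), the interferon-induced scramblase gene Plscr1 (0.76), Cyp3a25 (0.73) and the protease gene Prss23 (0.72). Adh4 had a mean log2 ratio of -0.06 at the low doses, -0.53 at 10 µg/kg and -1.52 at 30 µg/kg. Of 14 genes picked earlier from these data because they were high at 30 µg/kg, 12 were called lower at the low doses, and of 16 picked because they were low there, 7 were called higher. That choice used the high-dose arrays of this contrast, so these counts are a description and not independent evidence. At the low doses themselves 7 of the 14 and 6 of the 16 had means above 0, and 0 of the 30 were called.

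**Figure D3:**
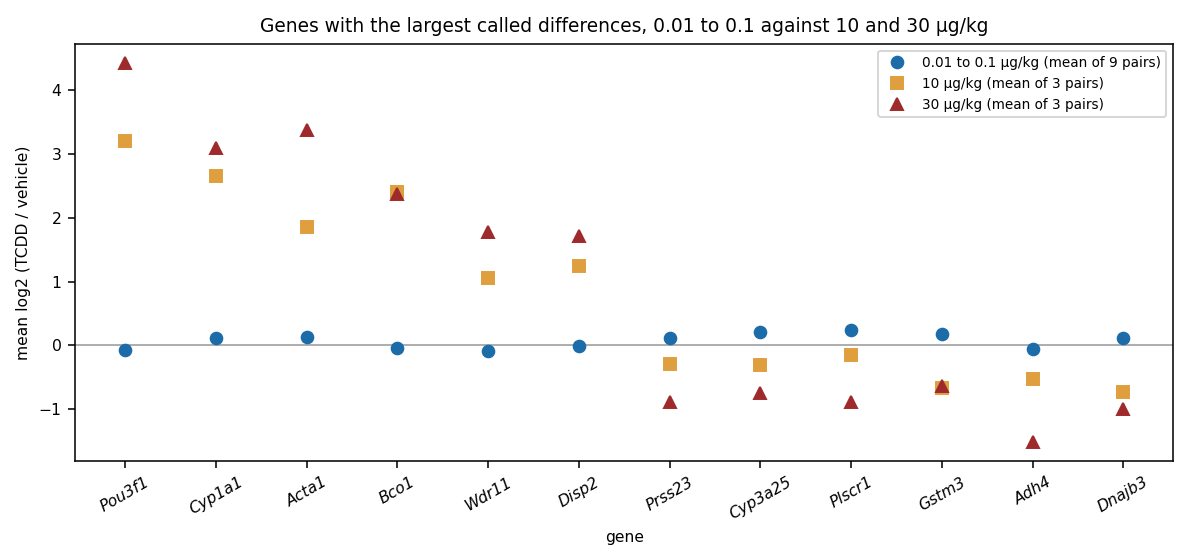
Mean log2 ratio of TCDD over vehicle (vertical axis) at 0.01 to 0.1 µg/kg (mean of 9 pairs), 10 µg/kg and 30 µg/kg (means of 3 pairs) for the 6 genes with the largest called difference in each direction (horizontal axis). Low-dose means lay between -0.09 and 0.24 for all 12 genes, while Pou3f1 reached 3.20 and 4.43.

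Against the middle doses of 0.3, 1 and 3 µg/kg, 0 of 13000 genes were called (0%) by limma, with 965 at an unadjusted p under 0.05. The genes with the smallest p, Zfp282, the glutathione transferase gene Gstm5 and Fxr1, had limma adjusted p of 0.453 each. Zfp282 had a mean log2 ratio of -0.09 at the low doses and 0.13, 0.17 and 0.16 at 0.3, 1 and 3 µg/kg. Gstm5 had 0.12 at the low doses and -0.31, -0.13 and -0.37 at the middle ones. For Cyp1a1 the low minus middle difference was -0.59 (limma adjusted p = 0.626), although its mean at 3 µg/kg was 2.04.

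Among gene lists, the genes of antigen presentation on MHC class II were lower most often. MHC class II molecules show peptides to helper T cells, and in the gut they are carried by B cells, dendritic cells, macrophages and epithelial cells. Of 10 measured genes 7 had an unadjusted p under 0.05 below 0, against 4.15% of all genes, 0 were called after adjustment over all genes, and the list median was -0.22. Cd74, the invariant chain, ran from -1.03 through a median of -0.29 to 0.24 (mean -0.33, limma adjusted p = 0.510). The chain gene H2-Aa had a mean of -0.35, H2-Ab1 of -0.25 and H2-Eb1 of -0.19, and the peptide loading genes H2-DMa and H2-DMb1 had -0.19 and -0.30. H2-Oa had the one mean above 0, at 0.05.

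The MHC class II values moved with B cell genes and with dye orientation. The list median was lowest in the pairs at 0.01 µg/kg (-0.59) and 0.1 µg/kg (-0.43) against vehicle animal 4, where the 10 measured B cell genes had medians of -0.90 and -0.87. The B cell medians of the other 7 pairs ran from -0.40 to 0.24. The B cell antigen receptor gene Cd79b was at -1.98 and -1.83 in those 2 pairs and Ms4a1, which encodes CD20, at -1.71 and -1.53, while Ciita was at -0.46 and -0.45. Without those 2 pairs, 4 of the 10 MHC class II genes had an unadjusted p under 0.05 and the list median was -0.13. With the treated animal in Cy5 there were 7 and a median of -0.41, and with it in Cy3 there were 2 and a median of -0.002. In these 2 settings the dye profile was not cancelled. They called 2235 (Cy5) and 3240 (Cy3) of all genes after adjustment, so the 4.15% is no background for their counts. With 1 pair left out at a time the count ran from 4 to 7, it was 1 without the 0.1 µg/kg pairs, and without all pairs of vehicle animal 2 or 4 it was 3 or 2. The part of B cell genes and of dye in the MHC class II values was not tested.

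MHC class I and interferon response genes were lower in part. Of 24 genes 4 had an unadjusted p under 0.05 below 0, against 4.15% of all genes, and 4 of the 24 means were above 0, with a list median of -0.06. The 4 were the immunoproteasome subunits Psmb9 (mean -0.22) and Psmb8 (-0.13) and the peptide transporters Tap1 (-0.21) and Tap2 (-0.13). They were lowest in pairs against vehicle animal 2, where the means of the 3 pairs were -0.36 for Psmb9 and -0.51 for Tap1. Without those pairs 1 of the 24 passed and the list median was 0.04. Leaving out 1 pair was enough to bring the count to 1 in 4 cases, those of vehicle animal 2 at each of the 3 doses and of vehicle animal 4 at 0.03 µg/kg, and it was 0 in the fit of all 24 pairs.

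Proliferation genes were below 0 as a list and small in size. Of 21 measured genes 0 had a mean above 0, the list median was -0.11, and 6 had an unadjusted p under 0.05, against 4.15% of all genes below 0, with 0 called. The mitotic kinase gene Aurka ran from -0.55 through a median of -0.20 to 0.01 (mean -0.23, limma adjusted p = 0.384). Birc5, the chromosomal passenger survivin, had a mean of -0.21, Aurkb of -0.19, the replication helicase gene Mcm4 of -0.15, Cdk1 of -0.14 and Tyms, which makes thymidylate, of -0.09. Mki67 had a mean of -0.15 without passing. The list medians were lowest at 0.01 µg/kg against vehicle animal 6 (-0.29) and 0.1 µg/kg against vehicle animal 4 (-0.29). The count ran from 0 to 11 over the alternatives run, 2 without both pairs with high exocrine pancreas genes and 11 with arrays not centred. In the crypt list, the Wnt target Ccnd1 had a mean of -0.32 and was below 0 in 9 of 9 pairs, and another Wnt target, Axin2, had a mean of 0.28 and was above 0 in 8 of 9.

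Of 14 measured genes of endoplasmic reticulum and amino acid stress, 5 had an unadjusted p under 0.05 below 0, against 4.15% of all genes, and 0 were called. These were Herpud1, which aids removal of misfolded proteins (mean -0.32, below 0 in 9 of 9 pairs), Creld2 (-0.30), Hspa5, the main Hsp70 of that compartment (-0.14), the isomerase Pdia4 (-0.12) and Hsp90b1 (-0.12), of which 1 of 2 probes lay near a shared value on 14 of 18 arrays. Without that probe the mean of Hsp90b1 was -0.26 (limma adjusted p = 0.382). Creld2 differed between vehicle animals (limma adjusted p = 0.0230), with means of -0.42, 0.07 and -0.56 against animals 2, 4 and 6. Sesn2, induced by amino acid shortage, had a mean of 0.09 and passed in the other direction. The list median of -0.02 was near that of all genes. The count was 1 without the pairs of vehicle animal 2, 2 without those of vehicle animal 6, without 0.1 µg/kg, with 1 mean per vehicle animal or in the fit of all 24 pairs, and 3 without the pair at 0.03 µg/kg against vehicle animal 6.

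Some retinoid and conjugation genes had means above 0. Of 15 retinoid genes 5 had an unadjusted p under 0.05 above 0, against 4.02% of all genes: the dehydrogenase Rdh7 (mean 0.20), the enterocyte retinol carrier Rbp2 (0.13), Retsat (0.14), the retinoic acid synthase Aldh1a2 (0.08) and the receptor Rxra (0.07). Rdh7 was high at 0.01 µg/kg against vehicle animal 6 (0.58) and between -0.04 and 0.39 in the other pairs. The list as a whole had no one direction, with 9 of 15 means above 0 and a median of 0.03, which was -0.02 with the treated animal in Cy5 and -0.01 without the pairs of vehicle animal 2. The count of 5 fell to 2 without the pair at 0.01 µg/kg against vehicle animal 6 and was 3 to 4 without any other pair, 1 without 0.01 µg/kg, 2 with 1 mean per vehicle animal and 0 in the fit of all 24 pairs. Of 18 conjugation and other P450 genes, 17 had a mean above 0 and 3 passed: Sult1d1, Cyp2j6 (0.29) and the bilirubin glucuronosyltransferase Ugt1a1 (0.16). The list median was 0.59 at 0.01 µg/kg against vehicle animal 6 and between -0.10 and 0.24 elsewhere, and it was 0.01 without the 3 pairs of vehicle animal 6. With the treated animal in Cy5 0 of the 18 passed, with it in Cy3 9 did, and with the vehicle animal as a fixed block 6 did. The counts of 1 orientation hold the uncancelled dye profile, so the 4.02% is no background for them.

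Lists of lipid handling genes had medians from -0.05 to 0.03, with larger values for single genes. Fat absorption and chylomicron genes had a list median of 0.01 with 2 of 19 passing upward, against 4.02% of all genes higher and 4.15% lower, among them the fatty acid translocase Cd36 (mean 0.25, -0.22 to 0.72). Cholesterol synthesis genes had means above 0 in 2 of 18 cases, a list median of -0.05 and 1 gene passing, Hsd17b7 (mean -0.23, limma adjusted p = 0.310). Sterol transport genes had 2 of 9 passing upward, Abcg8 (0.12) and the lysosomal cholesterol exporter Npc1 (0.14). Fatty acid oxidation genes had a median of 0.02, and the lipoprotein lipase inhibitor Angptl4 ran from -1.05 to 0.73 with a mean of -0.43. Bile acid genes had a median of 0.03, with Abcb1a, an efflux pump, at 0.32 and the xenobiotic receptor gene Nr1i2 at -0.20.

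Lists of epithelial cell type markers had pooled medians close to 0, with wider values in single pairs for goblet and Paneth cell genes. The 17 brush border genes had a list median of 0.02 with 0 passing in either direction, against 4.02% of all genes higher and 4.15% lower, and their pair medians ran from -0.14 to 0.06. Goblet cell genes had a median of 0.01 with 0 of 11 passing, and pair medians from -0.18 to 0.23. Paneth cell and defence genes had a median of -0.01 with 1 of 14 passing, Nupr1 (mean 0.27), pair medians from -0.35 to 0.26 and gene means from -0.23 to 0.27. Both lists were lowest at 0.01 µg/kg against vehicle animal 6 and highest at 0.03 µg/kg against vehicle animal 2. Enteroendocrine and tuft genes had a median of 0.04 with 3 of 18 passing, Chgb, a granin of endocrine cells, upward (0.15) and the incretin gene Gip (-0.14) and the tuft cell regulator Pou2f3 (-0.13) downward. The 24 measured T cell and intraepithelial lymphocyte genes had a median of -0.02 and macrophage and dendritic cell genes one of -0.02. Plasma cell genes had a median of -0.04 and mast cell and eosinophil genes one of 0.04, the eosinophil receptor gene Siglecf being at 0.20. Stroma, endothelial and erythrocyte lists had medians of 0.01, 0.05 and 0.005.

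**Figure D4:**
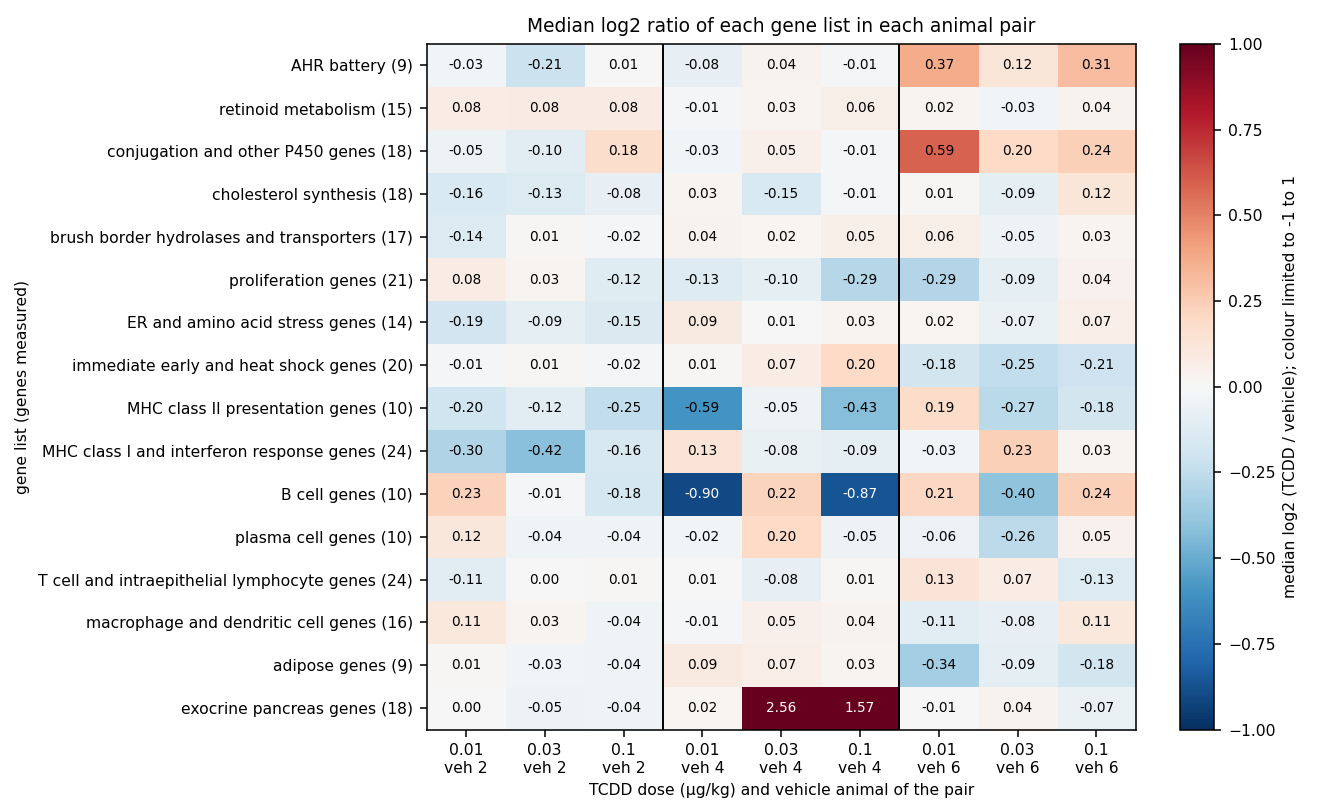
Median log2 ratio of TCDD over vehicle for 16 gene lists (vertical axis, with the number of genes measured) in each of the 9 low-dose pairs (horizontal axis, ordered by vehicle animal and then dose), printed in each cell and coloured from -1 to 1. The exocrine pancreas list stood at 2.56 and 1.57 and the B cell list at -0.90 and -0.87 in single pairs against vehicle animal 4.

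The 9 pairs share 3 vehicle animals. Across genes, pairs with the same vehicle animal correlated at 0.02 to 0.40 (median 0.34, 9 combinations), and pairs with different vehicle animals at -0.17 to 0.20 (median -0.04, 27 combinations). The former share the vehicle RNA on both sides and would correlate from that alone, so these values are a description. By limma's moderated F test, 82 genes differed between the 3 vehicle animals (0.601%), with 2149 at an unadjusted p under 0.05 (15.7%). In a fit of the same form, with the vehicle animal as a fixed block, the treatment test called 25 genes over the same pairs. The F test between vehicle animals was also run with 1 dose left out. It called 10 genes without 0.01 µg/kg, 13 without 0.03 µg/kg and 2 without 0.1 µg/kg. Without both pairs with high exocrine pancreas genes that F test called 22.

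Early stress response genes were among those that differed. Of 20 immediate early and heat shock genes 5 were called between vehicle animals, against 0.601% of all genes: Fos, Atf3, Dusp1, Hspa1a and Hsph1. The inducible Hsp70 gene Hspa1a had means of -1.12, 0.64 and -0.31 against vehicle animals 2, 4 and 6 (limma adjusted p = 0.0163). Its 3 values within an animal did not overlap those of the others, which largely follows from its choice by this F test. Hsph1, a large chaperone, had -1.34, 0.39 and -0.68, and Hbegf, an epidermal growth factor receptor ligand, had 0.33, -0.19 and -1.54. Atf3 had 0.16, 0.53 and -1.42. Of 9 adipose genes 2 were called, Cidec and the fatty acid carrier gene Fabp4, whose means were 0.33, 1.36 and -2.60. Also among the 8 genes with the smallest p were Dusp10, Actg1, Clic4 and Trib1.

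The 15 pairs at 0.3 to 30 µg/kg were not in the test but share the same vehicle animals. The shared vehicle RNA alone would give like values in these pairs, so they are no independent check. There the means of Hspa1a against animals 2, 4 and 6 were -1.28, 0.28 and -0.31, those of Hsph1 -1.70, 0.35 and -0.38, and those of Hbegf 0.05, -0.09 and -1.14. Fabp4 had 1.11, 0.01 and -1.69, with animal 6 again lowest and the order of the other 2 exchanged. For Actg1 the mean against animal 6 was -0.10 there and -0.52 at the low doses.

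**Figure D5:**
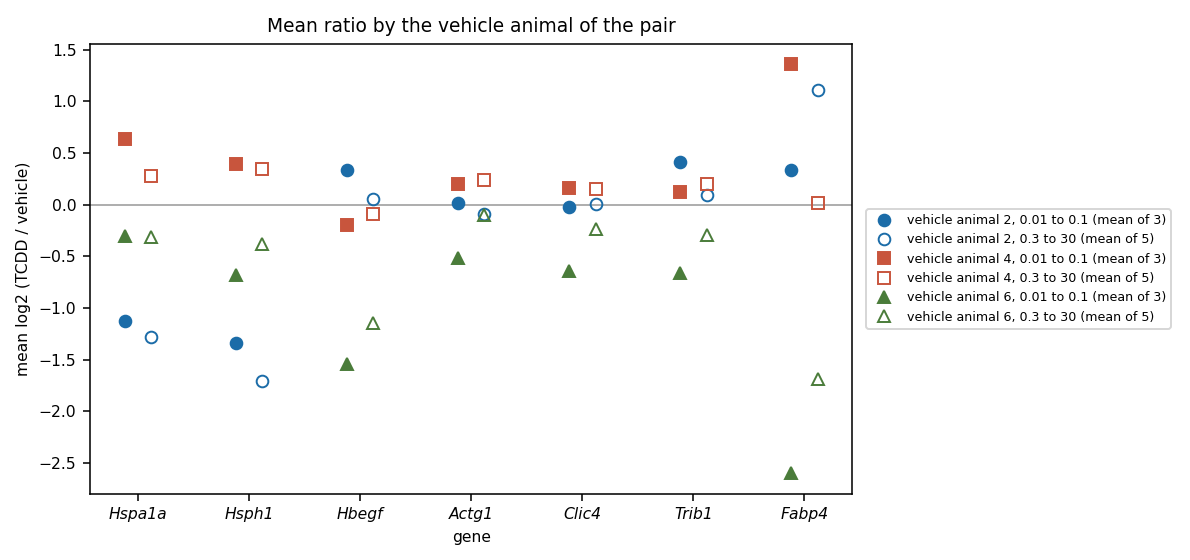
Mean log2 ratio of TCDD over vehicle (vertical axis) by the vehicle animal of the pair, for 7 of the 8 genes with the smallest p between vehicle animals (horizontal axis), as filled points for 0.01 to 0.1 µg/kg (mean of 3 pairs) and open points for 0.3 to 30 µg/kg (mean of 5 pairs). Fabp4 and Hbegf were lowest against vehicle animal 6, and Hspa1a and Hsph1 against vehicle animal 2.

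The 8 genes with the largest SD over the 9 pairs were Traf6, Fabp4, S100g and 5 exocrine pancreas genes. The signalling adaptor gene Traf6 had the largest SD over the 9 pairs (2.27) and ran from -3.09 through a median of -0.03 to 3.13, with its 3 values against vehicle animal 2 between -3.09 and -2.44. The exocrine genes Pnliprp1, Amy2a5, Cpb1, Cela3b and Ctrc had SDs of 1.94, 1.91, 1.73, 1.64 and 1.61. Pnliprp1, a pancreatic lipase relative, was at 4.51 and 3.58 in the 2 pairs with high exocrine genes and between -0.71 and 0.05 in the other 7. S100g, the calcium carrier calbindin of absorptive cells, ran from -2.51 through a median of -0.18 to 1.34 and was above 0 in the 3 pairs of vehicle animal 6.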

How the data were processed

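RNA of jejunal epithelium was measured on 2-colour arrays labelled with Cy3 and Cy5, per the labels. The deposited table holds the authors' log ratios, read here as log2 of treated over vehicle. Their base, sign, background correction and normalization are not given in the sources used here, and with no intensities used here, dim spots could not be judged. The number of arrays limits the precision. Nothing in the labels says more of the animals than their numbers.

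Of 41085 probes, 22937 had a value on all 18 arrays, and 25.1% of cells were empty. On each array 210 to 335 probes had exactly the same value, so 393 complete probes with a value shared by at least 200 probes of an array were dropped (92 of them for 1 array). A further 58 probes lay within 0.005 of such a value on at least 6 arrays and were kept. Each array was centred on its median (-0.10 to 0.04 before) and the 2 dye-swapped arrays of a pair were averaged. Gene names came from the platform's annotation (32555 of 32600 listed probes with 1 symbol, 8485 probes of the table unlisted), updated by gene identifier for 32416. Probes of a gene were averaged, which gave 13648 genes from 19031 probes, 4182 of them with more than 1 probe.

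limma 3.58.1 (R 4.3.3, statmod 1.5.0) tested the mean of the 9 pairs against 0, two-sided, with the vehicle animal as a random block (correlation 0.11), and called genes at a Benjamini-Hochberg adjusted p under 0.05. Slope and contrasts with other doses used it as a fixed block. The numbers pair the samples because the labels give pairs of 1 number the same vehicle animal. With dose means removed such pairs correlated at 0.03 to 0.39, which is a description, since they would correlate from the shared vehicle RNA alone. The scripts were tested on simulated data.

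Members, lists and tests were chosen with earlier results of these data known. Named are the called genes or, where none was called, those with the smallest p (12 each way in the pooled test), all measured AHR battery and high-dose genes, the 3 with the smallest p of each list, the 8 that differed most between vehicle animals and the 8 with the largest SD. Predicted and clone-named genes were skipped. Members named beyond that to fill a count of a list were chosen after their values were seen. Alternatives covered the block, centring, dye orientation, probe handling and leaving out pairs, vehicle animals or doses.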

Additional observations from a re-analysis of the deposited data

Results flagged for a closer look

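Of 181 named genes with values in all 9 pairs, 15 had a highest or lowest pair set apart from the rest, by the gap to the nearest pair over the gene's range, set against Dixon's 95% critical value for 9 values. Chance sets apart about 1 in 20 groups. In 6 of them the pair was that at 0.01 µg/kg against vehicle animal 6, which was high for the malic enzyme gene Me1 (1.30), the antimicrobial lectin gene Reg3a (1.03), the retinal dehydrogenase gene Aldh1a1 (0.39), Nr1i2 (0.19) and Hadhb (0.16) and low for the cyclin gene Ccnd1 (-0.94). The Aldh1a1 probe lay near a shared value on 9 of 18 arrays. The pair at 0.03 µg/kg against the same animal was high for Batf3 (0.39) and low for the clock gene Bhlhe40 (-0.80) and the lipogenic regulator Srebf1 (-0.25). The pair at 0.1 µg/kg against vehicle animal 4, one of those with high exocrine pancreas and low B cell genes, was high for Acta1 (1.08) and low for the sterol exporter Abcg5 (-0.26) and the desaturase Fads1 (-0.11). At 0.1 µg/kg against animal 6, Birc5 was high (0.26) and Vwf low (-0.14), and at 0.01 µg/kg against animal 2, Slc45a3 was low (-0.06).

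For 26 named genes the low doses and 10 and 30 µg/kg differed in the contrast within vehicle animal. Lower at the low doses, as differences of mean log2 ratios, were Pou3f1 (-3.88), Cyp1a1 (-2.75), Acta1 (-2.48), Bco1 (-2.43), Wdr11 (-1.50), Disp2 (-1.48), Gabbr1 (-1.39), Tmigd1 (-1.14), Olfr114 (-1.08), Tiparp (-1.05), Rab33a (-0.99), Ahr (-0.59), Cyp2j6 (-0.56) and Cyp2s1 (-0.43). Cyp2j6 had a mean of 0.29 at the low doses, 1.07 at 10 µg/kg and 0.63 at 30 µg/kg. Higher at the low doses were Dnajb3 (0.98), Adh4 (0.96), Gstm3 (0.83), Plscr1 (0.76), Cyp3a25 (0.73), Prss23 (0.72), Dnase1 (0.60), Thy1 (0.44), Ugt1a1 (0.37), Aldh1a1 (0.32), Txnrd3 (0.29) and Eci1 (0.25). The Dnase1 probe lay near a shared value on 8 of 18 arrays. Many of these genes were listed because earlier results of these data had them high or low at 30 µg/kg. Others were named for having the largest called differences in this same contrast. The count of 26 is therefore a description. Of all genes, 0.285% were called higher at the low doses and 0.509% lower.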

How the results depend on the processing

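The pooled test called 1 gene. The replicate block mattered to it: 3 genes were called with no replicate block, 25 with a fixed one and 0 with 1 mean per vehicle animal. A fit of all 24 pairs called 3 genes and a mean per dose in the fit or leaving out 0.01 µg/kg called 1 each; Tob2 was in none of these, and Taf15 was called in all 3 (adjusted p = 0.00249, 0.000515 and 0.00184). The pooled test called 2 without centring, and 0 with trend and robust eBayes, with each probe tested by itself, without 0.03 or 0.1 µg/kg, without both pairs with high exocrine pancreas genes and without both pairs with low B cell genes (the last 2 chosen after seeing the data). With 1 pair or 1 vehicle animal left out, it called 0 to 5. Tob2 was called under 13 of 31 alternatives and kept its sign under all 31. Of the 24 leading genes, 23 kept their sign under all alternatives run, and Laptm4b did not. These genes, Tob2 among them, were picked for their small p over these same pairs. Kept signs largely follow from that choice and are a description.

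With arrays of 1 orientation, where no dye swap cancels the dye profile, the pooled test called 2235 genes (treated animal in Cy5) and 3240 (Cy3), the 3 doses tested alone 489 and 1248, and the difference between vehicle animals 54 and 21. Of 181 named genes, 45 turned sign in Cy5 alone and 29 in Cy3 alone, most without being called there. Called with the opposite sign in Cy5 alone were Atp5b (-0.18), Disp2 (0.29), Dnajb1 (-0.16), Myo1a (-0.58), Rpl4 (-0.24), Rps6 (0.22) and Urod (-0.19), and in Cy3 alone Cd2 (-0.22) and Tap2 (0.24).

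Against 10 and 30 µg/kg, 61 genes were called with no replicate block in place of 106, and 31 to 248 with 1 vehicle animal left out. The doses tested alone gave 0 to 1 calls then. The difference between vehicle animals gave 10, 13 and 2 calls without 0.01, 0.03 or 0.1 µg/kg and 22 without both pairs with high exocrine pancreas genes, in place of 82. The slope and the contrast with 0.3 to 3 µg/kg called 0 genes under every alternative run. The causes of these changes were not tested. What signal over background limits is unknown, since no intensities were used.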

Other observations

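Housekeeping and stress-related lists not described above were near 0 at 0.01 to 0.1 µg/kg. Mitochondrial respiratory chain genes had a list median log2 ratio of -0.01 (17 measured, 0 with an unadjusted p under 0.05), alpha-subunit proteasome genes -0.02 (7 measured, 0) and heme synthesis and iron genes 0.03 (17 measured, 1, Bach1). Ribosomal protein genes had a median of -0.04 with 1 of 14 means above 0, and their pair medians ran from -0.37 to 0.17. Circadian clock genes had a median of -0.03, with Bhlhe40 at -0.21 (limma adjusted p = 0.572). Fatty acid synthesis genes had a median of 0.01 and hepatic plasma protein genes one of 0.02.

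The glutathione and NRF2 list, the antioxidant genes, moved with the vehicle animal: 19 of 26 genes had an unadjusted p under 0.05 in the F test between vehicle animals, against 15.7% of all genes, and the list medians were -0.11, -0.01 and 0.23 against animals 2, 4 and 6. The conjugation and other P450 list did likewise, with 12 of 18 genes and medians of -0.04, -0.01 and 0.33, and so did MHC class I and interferon genes, with 12 of 24 and medians of -0.32, 0.05 and 0.08.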
